A study of Rattus norvegicus with 6 samples.

Results

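The mitochondrial ribosomal proteins were the protein-coding rows of the deposited table whose symbol starts with Mrpl or Mrps and a digit. They numbered 78 of the 32930 rows listed, 17713 of which were protein-coding, and comprised 49 names of the large subunit (Mrpl) and 29 of the small subunit (Mrps). Livers were sequenced from 3 animals given a high-fat diet with 0.5% CMC-Na, a cellulose vehicle (HFD group). Another 3 animals had a high-fat diet with HTG, the herbal Huazhuo Tiaozhi granule (HTG group), and the sample labels give 12 weeks for each. The study's methods for rats describe HTG in the same vehicle, given only in the later part of 12 weeks of diet. All 6 animals had the high-fat diet, and no library came from an animal on a normal diet. The sample labels name rats, the sequencing methods of the study name C57BL/6 J mice, and the rows carry mouse Ensembl identifiers, so the members were read as mouse genes. The treatment field of the HTG samples reads HCG, whereas their titles and the series design read HTG, and the latter was followed. The comparison asks whether the messages of the mitochondrial ribosome differed between livers with and without HTG on the same diet.

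Mitochondria translate the few proteins encoded by their own genome, all of them subunits of the respiratory chain and ATP synthase in mammals, on a ribosome of their own. Its RNAs are encoded in the mitochondrial genome, whereas every one of its proteins is encoded in the nucleus, made in the cytosol and imported. The small subunit holds the mRNA and decodes it, and the large subunit joins the amino acids and releases the chain through a tunnel towards the inner membrane. The liver, with its high rates of fatty acid oxidation, is rich in mitochondria.

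Estimated counts summed to between 50648778 and 90563477 per library, with HTG library 3 the lowest and HTG library 2 the highest. Their low values came in steps of 4, so that 3 fragments, the limit taken for an empty gene, were 12 counts. The members lay far above it, as the lowest count of any member in any library was 210. Replicates were separate animals as far as the series design tells, since it divides 6 rats into 2 groups. Of the hepatocyte markers, all 10 were in the table, and their summed level was between 107759 and 131323 CPM in HFD and between 99146 and 119974 CPM in HTG libraries, where CPM are counts scaled to a common normalised library size. Of the 10, 7 had fitted values below 0 (median log2 fold change -0.32), with Cps1, the first enzyme of the urea cycle, lower (-1.62) and Apoa1, an apolipoprotein, higher (1.24) at an unadjusted p under 0.05. Summed leukocyte markers (10 genes) spanned 337 to 456 CPM in HFD and 234 to 296 CPM in HTG libraries without overlap, with 1 of the 10, Lyz2, lower at an unadjusted p under 0.05 and none at or under 12 counts in every library. Most of this sum was Lyz2, and without it the other 9 spanned 62.0 to 80.1 CPM in HFD and 46.1 to 93.9 CPM in HTG libraries, with overlap. Of all 10, 6 had fitted values above 0, with a median log2 fold change of 0.021. Summed Kupffer cell markers (8 genes) spanned 587 to 1080 CPM in HFD and 419 to 726 CPM in HTG libraries, with overlap. All 8 had fitted values below 0 (median log2 fold change -0.54), whereas 51.6% of all genes tested had values above 0. At an unadjusted p under 0.05 (edgeR), 2 of the 8 were lower, against 12.4% of all genes. They were Adgre1 (-1.53, adjusted p = 0.0538, edgeR), without overlap between the groups, and Cd5l (-0.86), with overlap. The ranges of the stellate, endothelial, cholangiocyte and red cell markers overlapped, and of 4 exocrine pancreas markers Prss2 and Pnlip were at or under 12 counts in every library. The part of these cells in the values of the members was not tested. In bulk liver, fewer cells of a type and less RNA per cell cannot be told apart.

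The members were of moderate to high abundance in these livers. On the FPKM scale, which is per transcript length, the mean level over the 6 libraries ran from 2.23 (Mrpl19) to 50.2 (Mrpl18) in the large subunit, with a median of 10.4. In the small subunit it ran from 2.44 (Mrps30) to 34.4 (Mrps21), with a median of 6.90. The median over all genes tested was 1.61 FPKM. The levels of the large subunit thus spanned 22.6-fold and those of the small subunit 14.1-fold. An assembled ribosome holds most of these proteins in equal number. FPKM divide by a length set for each row, implied as 639 to 9080 nucleotides over the members. Mean counts, without that division, lay closer for these genes, at 5399 (Mrpl18) and 911 (Mrpl19), and at 1939 (Mrps21) and 1224 (Mrps30). Over all members, mean counts ran from 875 (Mrpl44) to 5499 (Mrpl24) in the large subunit. In the small subunit they ran from 448 (Mrps36) to 5103 (Mrps7). How far these lengths make the span was not tested. The order given here is that by FPKM. After Mrpl18, a protein of the central protuberance, came Mrpl12, the stalk protein that calls in the elongation factors, with 51.4 ± 3.69 FPKM in HFD and 32.3 ± 5.93 FPKM in HTG livers (SD, n = 3). Mrpl14, which lies at the subunit interface, followed with 29.6 ± 5.44 and 43.5 ± 11.6 FPKM. The order of these neighbours therefore differed between the groups, with Mrpl12 first in HFD livers and Mrpl18, at 42.0 ± 5.54 in HFD and 58.5 ± 12.2 FPKM in HTG livers, first in HTG livers. In the small subunit, Mrps21 (24.3 ± 3.20 and 44.6 ± 3.35 FPKM) was followed by Mrps7, a protein of the subunit's head (32.2 ± 1.77 and 33.5 ± 3.77 FPKM), and by Mrps28, the counterpart of bacterial S1 (18.0 ± 0.501 and 29.2 ± 1.66 FPKM). Here too the HFD livers had another order, with Mrps7 above Mrps21. Over the 6 libraries the neighbours in the large subunit differed by less than their spread, with SDs of 12.4, 11.3 and 11.1 FPKM for Mrpl18, Mrpl12 and Mrpl14, as did Mrps21 and Mrps7, with SDs of 11.5 and 2.74 FPKM. Mrps7 (32.8 ± 2.74 FPKM, SD, n = 6) and Mrps28 (23.6 ± 6.24 FPKM) lay further apart than the sum of their SDs.

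**Figure D1:**
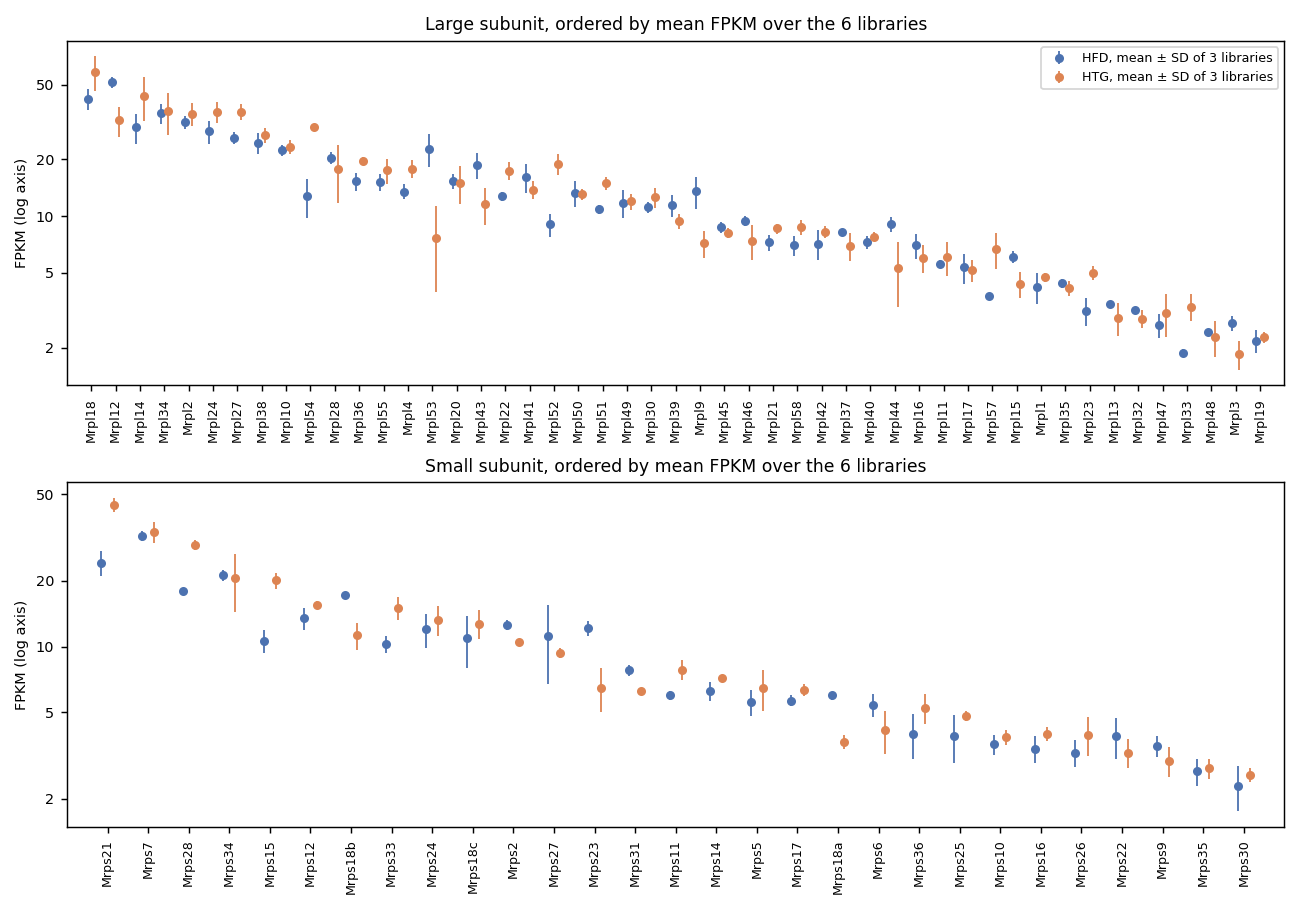
FPKM of the 49 large subunit members (top) and the 29 small subunit members (bottom), as the mean and SD of 3 HFD (blue) and 3 HTG (orange) libraries on a log axis, ordered by the mean over all 6 libraries. Levels fall from 50.2 (Mrpl18) to 2.23 (Mrpl19) and from 34.4 (Mrps21) to 2.44 (Mrps30), and the points of Mrpl54, Mrpl53, Mrpl52, Mrps15, Mrps21 and Mrps23 lie apart between the groups where those of most members lie close together.

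Summed over all large subunit members, FPKM came to 683, 658 and 630 in the HFD libraries and to 761, 742 and 614 in the HTG libraries. Summed small subunit members came to 289, 275 and 272 in the HFD libraries and to 334, 320 and 298 in the HTG libraries. HTG libraries 1 and 2 were above every HFD library in the large subunit and HTG library 3 below them, whereas in the small subunit all 3 HTG libraries were above. The sum of the small against that of the large subunit was 0.423, 0.419 and 0.432 in HFD and 0.439, 0.431 and 0.485 in HTG libraries, so the ranges of this ratio touched. All members together took between 0.197% and 0.211% of the counts in HFD and between 0.197% and 0.233% in HTG libraries. Between animals of a group, the coefficient of variation of a member's CPM had a median of 10.9% (HFD) and 11.1% (HTG) in the large subunit and of 10.9% and 10.1% in the small subunit, against 24.0% and 22.1% over all genes tested. Its highest values were 24.1% (HFD) and 48.5% (HTG) in the large and 36.2% (HFD) and 31.1% (HTG) in the small subunit. All genes tested had a lower median level (1.61 FPKM), and their variation was not matched to the members by abundance.

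All 78 members passed the filter on low counts and were among the 18455 genes tested. In the quasi-likelihood test of edgeR, with p adjusted by Benjamini-Hochberg over all genes tested, 0 members had an adjusted p under 0.05, as against 2 of all genes (0.0108%). The smallest adjusted p of a member was 0.0538, shared by Mrpl54, Mrpl52 and Mrps15. At an adjusted p under 0.1, 8 large subunit members were higher and 3 lower in HTG livers, and 4 small subunit members were higher and 2 lower. That is 12 of 78 members higher and 5 lower, with 5.41% of all genes higher and 5.43% lower. Under an unadjusted p of 0.05, 13 large subunit members were higher and 7 lower, and 5 small subunit members were higher and 3 lower. These 18 higher and 10 lower members are 23.1% and 12.8% of the 78, against 12.3% and 12.4% of all genes, so the share of lower members was close to that of all genes.

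DESeq2 at an adjusted p under 0.05 called 5 large subunit members higher and 3 lower and 3 small subunit members higher and 2 lower, or 8 and 5 members, with 6.60% of its genes called higher and 8.14% lower. In limma on log2(FPKM + 0.1), the corresponding counts were 4 higher and 2 lower in the large and 3 higher and 2 lower in the small subunit, or 7 and 4 members, with 2.98% and 5.05% of its genes called. The 3 libraries of each group did not overlap for 27 members that were higher (17 large, 10 small) and for 12 that were lower (8 large, 4 small), against 16.5% and 15.5% of all genes.

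The median log2 fold change was 0.11 in the large and 0.21 in the small subunit, against 0.025 over all genes tested. Most members differed little: 3 of 78 (3.85%) had a log2 fold change beyond 1 in either direction, namely Mrpl54, Mrpl52 and Mrpl53, against 16.4% of all genes. Fitted values of all genes spanned -11.9 to 7.91, and these genes were not matched to the members by abundance. Fitted values ran from -1.54 to 1.28 in the large and from -0.86 to 0.97 in the small subunit. Both subunits held members with non-overlapping groups in either direction. The lower ones, 8 of 49 in the large and 4 of 29 in the small subunit, were close to the 15.5% of all genes.

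**Figure D2:**
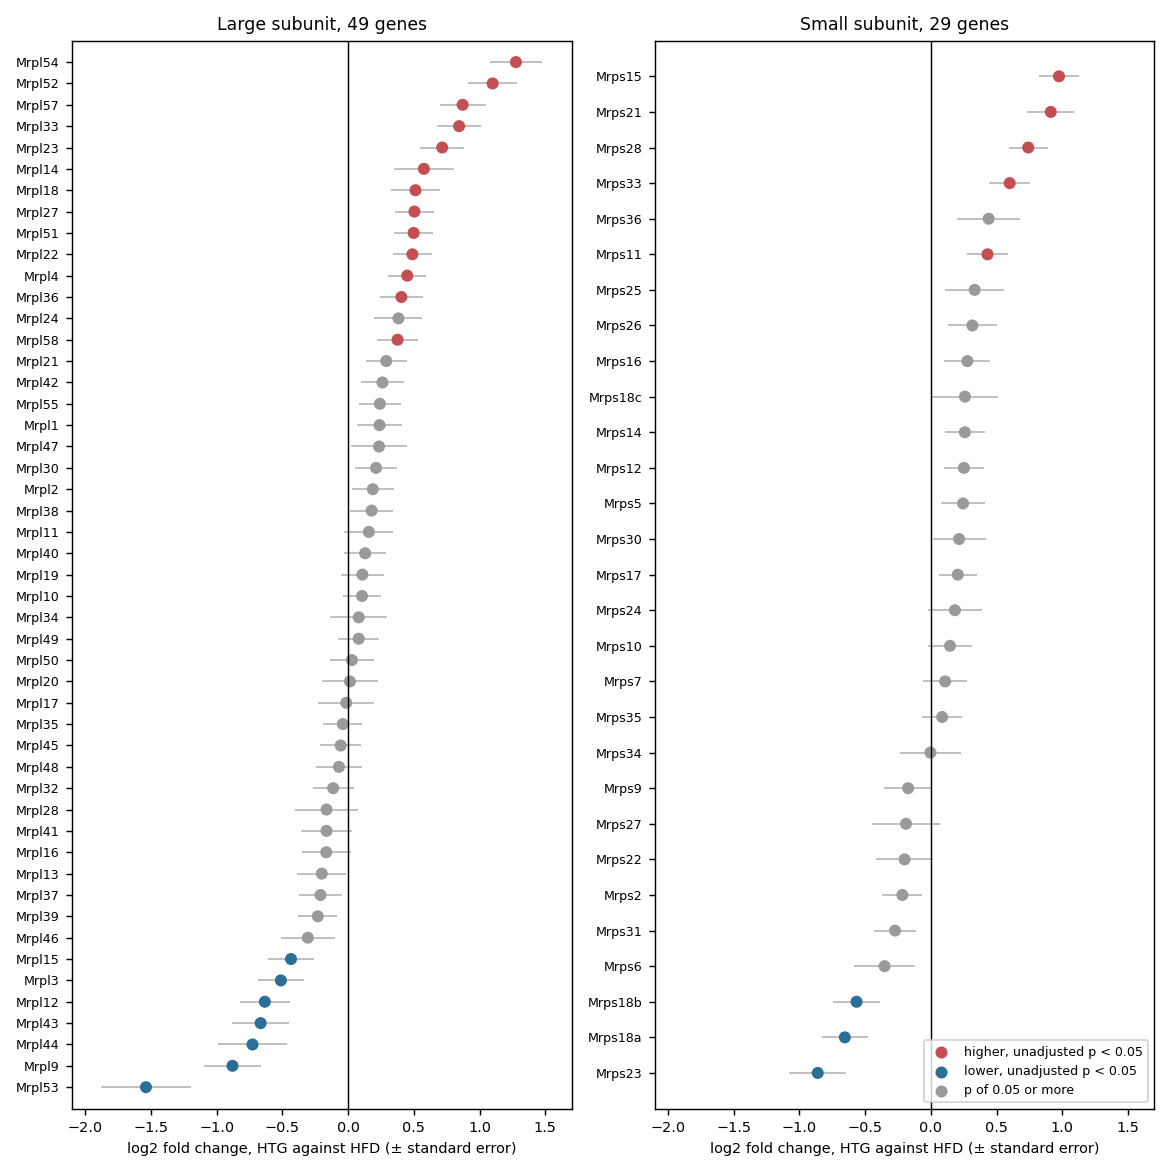
Log2 fold change, HTG against HFD, of each member of the large (left) and small (right) subunit, with bars of 1 standard error and colours for an unadjusted p under 0.05 by edgeR's quasi-likelihood test. In the large subunit 13 members are higher (red) and 7 lower (blue), in the small subunit 5 and 3, and values run from -1.54 (Mrpl53) to 1.28 (Mrpl54).

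Of the large subunit members that were higher in HTG livers, Mrpl54, a protein found in mitochondrial ribosomes and not in bacterial ones, had the largest difference. Its level was 13.4, 9.88 and 9.37 CPM in the HFD and 26.2, 23.4 and 29.4 CPM in the HTG libraries. Every HTG library thus exceeded every HFD library, and the level was 2.42-fold higher (log2 fold change 1.28 ± 0.20 SE, adjusted p = 0.0538, edgeR). Mrpl52, also without a bacterial counterpart, had 10.2, 12.6 and 8.65 CPM in the HFD and 22.4, 23.7 and 21.2 CPM in the HTG libraries. Again the groups were wide apart, with a 2.14-fold higher level (1.10 ± 0.19, adjusted p = 0.0538, edgeR). Mrpl57 had 11.3, 11.9 and 11.3 CPM in the HFD libraries, nearly the same value in each, and 17.5, 24.3 and 21.3 CPM in the HTG libraries (log2 fold change 0.87 ± 0.17, adjusted p = 0.0582, edgeR). Mrpl33, the counterpart of the small bacterial protein L33, had 13.9, 16.0 and 13.1 CPM in the HFD and 23.0, 28.4 and 25.7 CPM in the HTG libraries (0.84 ± 0.16, adjusted p = 0.0582, edgeR). None of these 4 overlapped between the groups.

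The member with the highest FPKM, Mrpl18, had 67.5, 60.3 and 54.5 CPM in the HFD and 96.0, 92.5 and 71.5 CPM in the HTG libraries, with no overlap (log2 fold change 0.51 ± 0.19, adjusted p = 0.139, edgeR). For Mrpl14, at 29.2, 36.1 and 22.6 CPM in the HFD and 45.3, 51.3 and 34.4 CPM in the HTG libraries, HTG library 3 fell within the range of the HFD libraries (0.58 ± 0.23, adjusted p = 0.164, edgeR). Mrpl58, also known as ICT1, is a hydrolase that frees stalled chains from the ribosome and has become one of its fixed parts. It had 23.5, 22.5 and 26.2 CPM in the HFD and 34.4, 28.2 and 31.1 CPM in the HTG libraries (0.38 ± 0.16, adjusted p = 0.184, edgeR). The other 6 with an unadjusted p under 0.05, named here after their values were seen, had log2 fold changes between 0.40 and 0.72. They included Mrpl4, Mrpl22 and Mrpl23, which line the exit tunnel, beside Mrpl27, Mrpl36 and Mrpl51.

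Of the large subunit members that were lower in HTG livers, the largest difference was that of Mrpl53, at 13.9, 22.0 and 20.4 CPM in the HFD and 10.1, 4.82 and 4.48 CPM in the HTG libraries. All HTG libraries were below all HFD libraries, and the level was 2.90-fold lower (log2 fold change -1.54 ± 0.34, adjusted p = 0.0612, edgeR). This row overlaps another gene, as described further on. Mrpl9, the counterpart of bacterial L9, had 38.8, 46.8 and 28.8 CPM in the HFD and 24.2, 19.3 and 18.6 CPM in the HTG libraries, 1.84-fold lower without overlap (-0.88 ± 0.22, adjusted p = 0.0657, edgeR). The stalk protein Mrpl12 had 74.4, 94.3 and 76.9 CPM in the HFD and 63.1, 48.4 and 46.9 CPM in the HTG libraries, 1.55-fold lower without overlap (-0.63 ± 0.19, adjusted p = 0.0984, edgeR). Mrpl43 had 28.2, 36.6 and 24.3 CPM in the HFD and 23.0, 17.4 and 15.7 CPM in the HTG libraries (-0.67 ± 0.22, adjusted p = 0.112, edgeR). In the latter, HTG library 1 lay close to the lowest HFD library.

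Mrpl44, a protein with the fold of a double-strand RNase, had 14.7, 15.1 and 16.4 CPM in the HFD and 13.3, 6.83 and 7.69 CPM in the HTG libraries (log2 fold change -0.73 ± 0.27, adjusted p = 0.141, edgeR). Its HTG libraries 2 and 3 lay far below the HFD libraries, and HTG library 1 just below them. This row, too, overlaps another gene at its start, the more abundant Wdfy1, with which its sum was higher in HTG livers, as given further on. The remaining lower members of the large subunit were Mrpl3 (-0.51), which reaches towards the peptidyl transferase centre, and Mrpl15 (-0.43), both named after their values were seen.

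The proteins at the base of the stalk, on which Mrpl12 sits, had values closer to 0. Mrpl10, the stalk base to which Mrpl12 binds, had 38.1, 39.3 and 41.0 CPM in the HFD and 42.4, 42.8 and 42.2 CPM in the HTG libraries (log2 fold change 0.11 ± 0.14, adjusted p = 0.685, edgeR). Mrpl11, beside it on the ribosome, had 18.2, 20.7 and 17.0 CPM and 25.4, 18.6 and 18.4 CPM (0.16 ± 0.19, adjusted p = 0.637, edgeR), and its value was below 0 without HTG library 1 (-0.05). Whether Mrpl12 differed from them in its response was not tested. Mrpl45, which tethers the ribosome to the inner membrane, had 23.4, 26.1 and 21.0 CPM in the HFD and 23.6, 21.5 and 22.7 CPM in the HTG libraries, a difference smaller than the spread within the groups (-0.06 ± 0.15, adjusted p = 0.853, edgeR).

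In the small subunit, Mrps15, the counterpart of bacterial S15, had the largest difference. Its level was 20.0, 17.4 and 18.0 CPM in the HFD and 33.6, 36.6 and 38.9 CPM in the HTG libraries. Each HTG library was far above each HFD library, and the level was 1.96-fold higher (log2 fold change 0.97 ± 0.15, adjusted p = 0.0538, edgeR). Mrps21 had 17.8, 22.6 and 15.8 CPM in the HFD and 33.5, 35.4 and 36.7 CPM in the HTG libraries (0.91 ± 0.18, adjusted p = 0.0582, edgeR). Mrps28 had 13.7, 15.6 and 14.6 CPM in the HFD and 25.4, 23.3 and 24.6 CPM in the HTG libraries (0.74 ± 0.15, adjusted p = 0.0582, edgeR). Both proteins have bacterial counterparts, and both were separated between the groups by more than the range within either. Mrps33, which has none, had 18.8, 17.6 and 16.6 CPM in the HFD and 23.8, 27.9 and 28.8 CPM in the HTG libraries (0.60 ± 0.15, adjusted p = 0.0723, edgeR).

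Mrps23 had the most negative fold change of the small subunit, at 18.4, 22.8 and 17.8 CPM in the HFD and 13.7, 8.56 and 10.2 CPM in the HTG libraries. The groups did not overlap, and the level was 1.82-fold lower (log2 fold change -0.86 ± 0.22, adjusted p = 0.0682, edgeR). The 3 mammalian homologues of bacterial S18 were all listed. Mrps18a, whose protein sits in the large subunit in spite of its name, had 20.9, 25.3 and 22.5 CPM in the HFD and 15.1, 12.2 and 16.3 CPM in the HTG libraries (-0.65 ± 0.17, adjusted p = 0.0777, edgeR). Mrps18b had 35.9, 40.0 and 36.1 CPM in the HFD and 29.2, 20.5 and 26.0 CPM in the HTG libraries (-0.57 ± 0.18, adjusted p = 0.105, edgeR). Both were lower without overlap. Mrps18c, which takes the place of S18 in the small subunit, had 13.7, 14.9 and 8.20 CPM and 17.3, 12.6 and 14.1 CPM with overlap (0.26 ± 0.25, adjusted p = 0.559, edgeR). The difference in response between these homologues was not tested. Mrps31, next by p among the lower members, had 24.0, 30.1 and 25.7 CPM in the HFD and 22.7, 20.1 and 23.3 CPM in the HTG libraries, without overlap but short of the unadjusted threshold (-0.27 ± 0.16, adjusted p = 0.331, edgeR). Mrps6, with a value further from 0 (-0.35 ± 0.23), had a larger p.

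**Figure D3:**
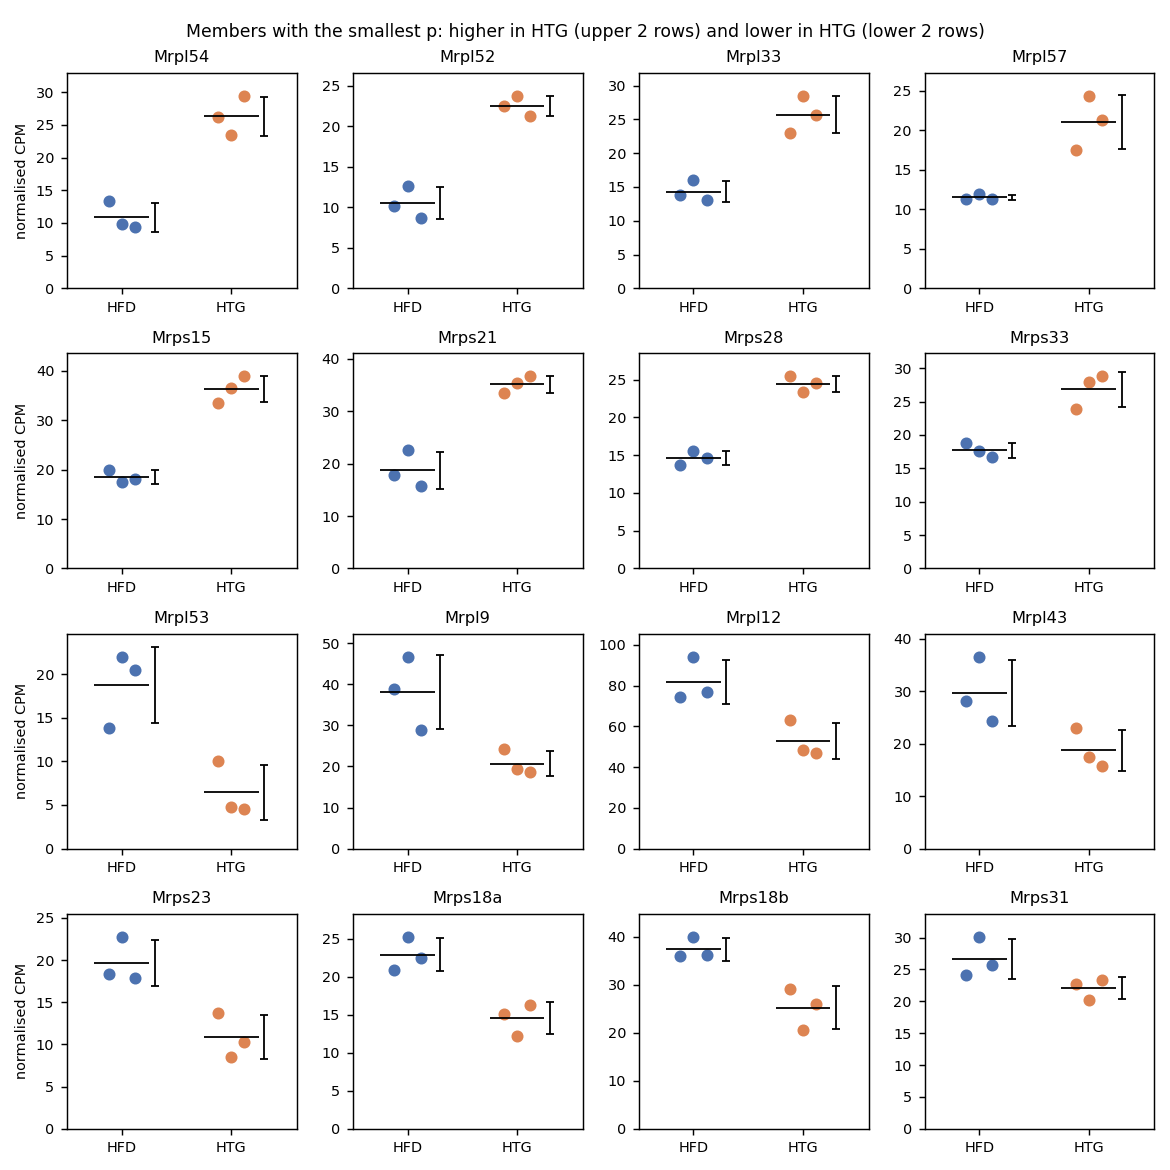
Normalised CPM in each of 3 HFD (blue) and 3 HTG (orange) libraries for the 4 members of each subunit with the smallest p in either direction, with the mean (line) and SD (bar), each axis starting at 0. Upper rows show members that were higher in HTG, such as Mrpl54 and Mrps15, and lower rows show members that were lower, such as Mrpl53 and Mrps23, and in none of the 16 panels do the groups overlap.

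Other small subunit proteins with known parts in decoding and mRNA entry differed less than their error allowed to call. Mrps12, on which the accuracy of decoding depends, had 15.8, 14.0 and 13.6 CPM in the HFD and 17.1, 16.6 and 18.0 CPM in the HTG libraries (log2 fold change 0.25 ± 0.15, adjusted p = 0.349, edgeR). Mrps5, at the mRNA entry, had 39.5, 34.3 and 39.6 CPM in the HFD and 41.1, 51.9 and 41.4 CPM in the HTG libraries (0.24 ± 0.17, adjusted p = 0.407, edgeR). Mrps16 had a log2 fold change of 0.28 ± 0.18 and Mrps7 one of 0.11 ± 0.17. Mrps2 (-0.22 ± 0.15) and Mrps22 (-0.20 ± 0.22) lay on the other side of 0. In Mrps27, an RNA-binding protein of the pentatricopeptide repeat family, the HFD libraries themselves ranged from 16.3 to 33.4 CPM (-0.19 ± 0.26), and the value was 0.12 without HFD library 3. In Mrps34 the HTG libraries ranged from 33.7 to 61.1 CPM around the HFD values of 41.9 to 47.9 CPM, and the fitted value was -0.0024 ± 0.23. Mrps30, a large subunit protein by structure, had a value of 0.22 ± 0.20.

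The Gene Ontology terms in the table placed all 78 members in the mitochondrion, 51 in its large and 27 in its small ribosomal subunit. By these terms Mrps30 belongs to the large subunit and Mrps18a to both. Mrps36 belongs to neither, and its protein is known as a component of the 2-oxoglutarate dehydrogenase complex of the citric acid cycle. It was the member with the lowest mean count, at 6.43, 5.04 and 4.30 CPM in the HFD and 8.07, 6.95 and 6.36 CPM in the HTG libraries (log2 fold change 0.44 ± 0.24, adjusted p = 0.293, edgeR). The genes lay on 17 chromosomes, 11 of them on chromosome 11, and no more than 8 on any other.

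Proteins with a bacterial counterpart and proteins named as particular to mitochondria were set side by side, a grouping made after the values were seen and not tested. In the large subunit, 30 members with a counterpart had a median log2 fold change of 0.17 with 8 higher and 4 lower (unadjusted p below 0.05), and the 19 others had 0.03 with 5 higher and 3 lower. In the small subunit, 16 members with a counterpart had a median of 0.25 with 4 higher and 0 lower, and the 13 others had a median of -0.0024 with 1 higher and 3 lower. Of the 16, the groups did not overlap in 9, all of them higher in HTG livers. Among the 13 others they did not overlap in 1 that was higher and 4 that were lower. Of all genes, 12.3% were higher and 12.4% lower at the same unadjusted p, and the groups did not overlap in 16.5% (higher) and 15.5% (lower). Mrps18a and Mrps18b, although homologues of bacterial S18, were counted here among the 13, and Mrps18c among the 16. Mrps18a and Mrps18b are among the lower members of the 13, so the contrast in lower members rests in part on this placing.

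Neighbouring and overlapping genes bear on several of these rows. The library kit in the sample labels does not mark the strand, the methods describe a strand-marking step, and whether counting used the strand is not stated, so that reads shared by overlapping genes may have been given to either. Of the 78 members, 36 overlapped another row and 20 overlapped one with a mean of at least 100 counts, 17 of these on the opposite strand only. The row of Mrpl53 (chr6:83086021-83086920, plus strand, coordinates as the table lists them) lies wholly within that of Gm42688 (chr6:83078598-83086920, plus strand), a row typed as a transcript subject to nonsense-mediated decay that ends at the same base. Gm42688 had 19.1, 13.9 and 13.9 CPM in the HFD and 21.2, 24.1 and 22.5 CPM in the HTG libraries, without overlap and in the direction opposite to Mrpl53 (log2 fold change 0.53 ± 0.18, adjusted p = 0.123, edgeR). Their sum was 32.9, 35.9 and 34.4 CPM in the HFD libraries (mean 34.4 ± 1.49 SD, n = 3) and 31.3, 28.9 and 27.0 CPM in the HTG libraries (29.0 ± 2.14), a log2 ratio of -0.24 against -1.54 for Mrpl53 alone. How much of the difference of Mrpl53 is a division of shared reads was not tested.

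**Figure D4:**
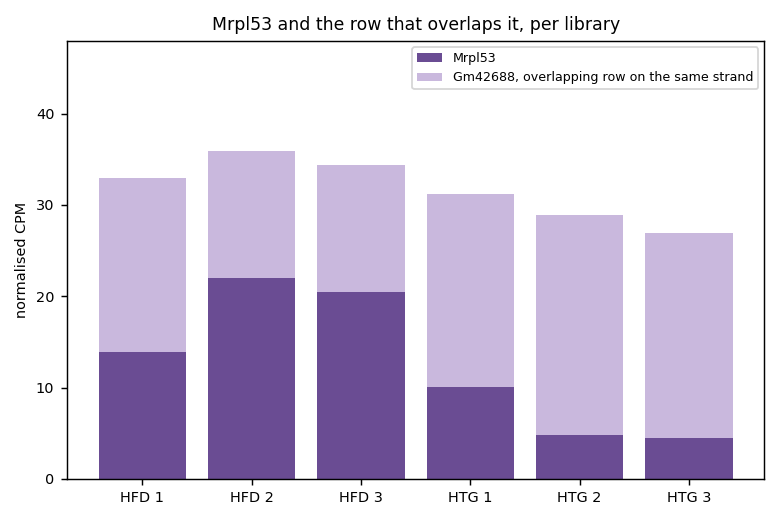
Normalised CPM of Mrpl53 (dark) and of Gm42688 (light), which overlaps it on the same strand, stacked for each of the 6 libraries. Mrpl53 takes 13.9 to 22.0 CPM in HFD and 4.48 to 10.1 CPM in HTG libraries, Gm42688 takes 13.9 to 19.1 and 21.2 to 24.1 CPM, and their sums span 32.9 to 35.9 and 27.0 to 31.3 CPM.

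For the other members with a partner, sums are given here without a test. A sum covers the whole of each row, also the parts that do not overlap. Mrpl44 overlaps Wdfy1 on the opposite strand, and Wdfy1 was higher in HTG livers (log2 fold change 0.95). Their sum was 31.3, 33.7 and 28.0 CPM in the HFD libraries (mean 31.0 ± 2.85 SD, n = 3) and 38.7, 39.9 and 39.3 CPM in the HTG libraries (39.3 ± 0.589). The log2 ratio of 0.34 was opposite in direction to the -0.73 of Mrpl44 alone. These rows overlap only between position 79753735, where Mrpl44 starts, and position 79753860, where Wdfy1 ends. Wdfy1 had the higher mean count (1649 against 875), so most of this sum is Wdfy1. Mrps18b overlaps the antisense row Gm16279, which was also higher (0.73), and their summed CPM had a log2 ratio of -0.30 against the -0.57 of Mrps18b alone. Mrpl46 and Mrps11, a member of each subunit, overlap by 412 bases on opposite strands. Mrps11 was higher (0.43 ± 0.16) and Mrpl46 had a value of -0.31 ± 0.21, and their sum had a log2 ratio of 0.10. Mrps21 overlaps the row C920021L13Rik, and their sum had a log2 ratio of 0.92 against 0.91 for Mrps21 alone. Of the other members described with their values, Mrpl18 overlaps Tcp1 (-0.08), Mrpl33 overlaps Rbks (0.07) and Mrpl43 overlaps Twnk (-0.10), each on the opposite strand, with log2 ratios of 0.11, 0.58 and -0.35 for the sums against 0.51, 0.84 and -0.67 for the members alone. Mrps34 overlaps Mapk8ip3 (0.93) on the opposite strand and Nme3 (0.22) on its own, and the sum of the 3 rows had a log2 ratio of 0.58 against -0.0024 for Mrps34 alone. Mrps7 overlaps Gga3 (0.44) and Mif4gd (0.13), both on the opposite strand, with a log2 ratio of 0.16 for the sum against 0.11 for Mrps7 alone. Mrpl54, Mrpl52, Mrpl57, Mrpl9, Mrpl12, Mrps15, Mrps28, Mrps23 and Mrps18a overlapped no row of at least 100 mean counts. Processed pseudogenes of the members, which were no members themselves, held 5 rows with between 1.06% and 3.99% of the counts of their parent.

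The length implied by the counts and FPKM of a row went with the difference between the groups over all genes. It is not a measured transcript length. For Mrpl32 it was 5244 nucleotides, longer than the row itself, which is listed from position 14782769 to 14787750. Over all genes with a length it fell as low as 27.7 nucleotides. By this measure the members were short, with a median of 2519 nucleotides against 3607 over the 15142 genes with a length. In the class under 1500 nucleotides, the 19 members had a median log2 fold change of 0.40, with 9 higher and 1 lower (unadjusted p below 0.05), and all genes of that class had a median of 0.33, with 17.7% higher and 6.04% lower. Between 1500 and 3000 nucleotides, the 25 members had a median of 0.03 (4 higher and 6 lower) against 0.04 for all genes (15.5% and 13.2%). Over 3000 nucleotides the 34 members had 0.15 (5 higher and 3 lower) against -0.05 for all genes (13.2% and 17.5%). By implied length, Mrpl54, Mrpl52, Mrps21 and Mrps28 were in the lowest class, as was Mrpl53, the only member there that was lower. Mrps15, Mrpl57, Mrpl33 and Mrps33 had longer implied lengths.

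With each library's trend on length taken out in the fit, 8 of the 13 higher members of the large subunit kept an unadjusted p under 0.05 and Mrpl14, Mrpl18, Mrpl22, Mrpl27 and Mrpl36 lost it. Of the 7 lower members 6 kept it and Mrpl15 lost it, whereas all 5 higher and all 3 lower members of the small subunit kept it. The medians were then 0.0091 in the large and 0.13 in the small subunit, so that the large subunit median was close to 0. What makes the implied length go with the groups was not tested.

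**Figure D5:**
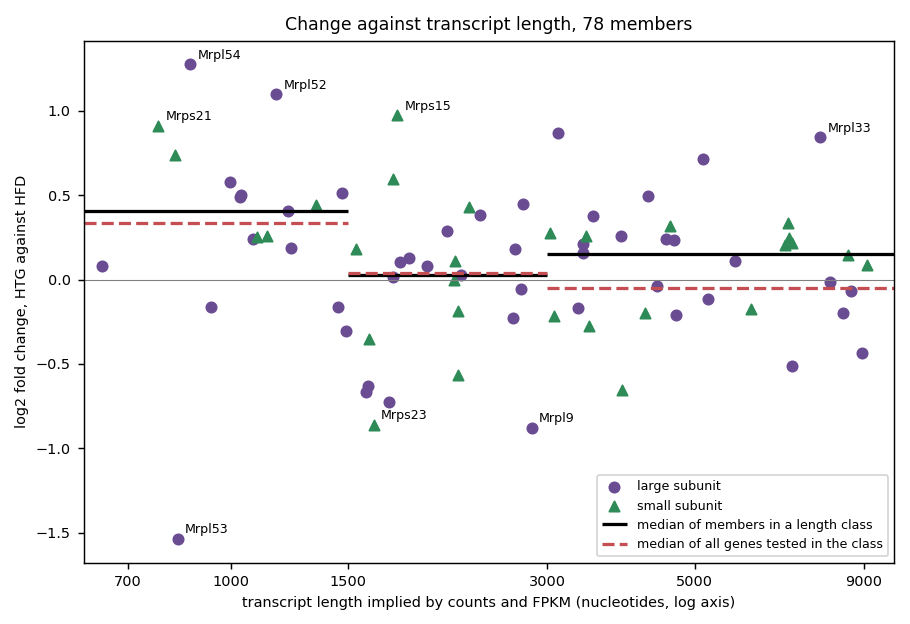
Log2 fold change, HTG against HFD, of each large (circles) and small (triangles) subunit member against its implied transcript length on a log axis, with the medians of the members (solid line) and of all genes tested (dashed line) in 3 length classes. Members under 1500 nucleotides have a median of 0.40 where all genes have 0.33, and those over 3000 nucleotides have 0.15 where all genes have -0.05.

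The other parts of the machinery were read from lists of genes. Higher and lower genes of a list are counted at an unadjusted p under 0.05 (edgeR). Of all genes, 12.3% were higher and 12.4% lower at this p. Of 5 ribosomal proteins that go by other names (Dap3, Ptcd3, Chchd1, Aurkaip1 and Gadd45gip1), 2 were higher and 0 lower (unadjusted p below 0.05), with a median log2 fold change of 0.22. Gadd45gip1, a large subunit protein, had 31.7, 29.9 and 27.9 CPM in the HFD and 49.5, 62.6 and 61.6 CPM in the HTG libraries, a difference of the size of the larger ones above (0.96 ± 0.17, adjusted p = 0.0542, edgeR). Aurkaip1, of the small subunit, had 41.3, 41.7 and 42.6 CPM in the HFD and 53.6, 63.0 and 53.0 CPM in the HTG libraries (0.43 ± 0.16, adjusted p = 0.136, edgeR). Of 28 assembly factors, 2 were higher (7.14%) and 1 lower (3.57%), both shares below those of all genes. Their median was -0.04. Mettl17, which acts in small subunit assembly, had 18.3, 13.3 and 16.9 CPM in the HFD and 27.4, 38.1 and 33.2 CPM in the HTG libraries (1.03 ± 0.19, adjusted p = 0.0575, edgeR). Mtg1, a GTPase of large subunit assembly, had 11.0, 14.7 and 14.2 CPM in the HFD and 9.94, 7.49 and 5.74 CPM in the HTG libraries (-0.78 ± 0.24, adjusted p = 0.104, edgeR).

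Of 17 translation factors in the table, out of 18 listed, 1 was higher (5.88%) and 4 were lower (23.5%) at an unadjusted p under 0.05 (edgeR). Of all genes, 12.3% were higher and 12.4% lower. The median log2 fold change of the 17 was -0.09. Slirp, which with Lrpprc binds mitochondrial mRNAs, had 7.96, 5.85 and 6.85 CPM in the HFD and 11.6, 13.9 and 12.8 CPM in the HTG libraries (0.89 ± 0.20, adjusted p = 0.0612, edgeR). The elongation factor Gfm1, which moves the ribosome along the mRNA and works at the Mrpl12 stalk, had 51.5, 56.1 and 92.0 CPM in the HFD and 39.9, 24.8 and 27.4 CPM in the HTG libraries (-1.12 ± 0.28, adjusted p = 0.0682, edgeR). HFD library 3 was the highest there, and the groups did not overlap. The others that were lower, named after their values were seen, were Tufm (-0.66), the factor that brings the aminoacyl-tRNA, Taco1 (-0.82), an activator of Cox1 translation, and Mtrfr (-0.62), a rescue factor. Of 20 genes for the charging of mitochondrial tRNAs, 1 was higher (5.0%) and 0 were lower, both shares below those of all genes. Their median was -0.15. The higher one was Cars2, the cysteinyl-tRNA synthetase (0.75 ± 0.18, adjusted p = 0.0627, edgeR), and Aars2, next by p, had a value of 0.35 ± 0.17.

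The RNAs of the same ribosome are encoded by the mitochondrial genome. The small subunit rRNA mt-Rnr1 had 515, 718 and 230 CPM in the HFD and 873, 1223 and 1273 CPM in the HTG libraries (log2 fold change 1.20 ± 0.40, adjusted p = 0.114, edgeR). The large subunit rRNA mt-Rnr2 had 521, 590 and 205 CPM in the HFD and 705, 916 and 968 CPM in the HTG libraries (0.98 ± 0.38, adjusted p = 0.158, edgeR). For both, all HTG libraries were above all HFD libraries and HFD library 3 was the lowest. The libraries were made from poly(A) RNA, so these rows count what carries or passes with a poly(A) tail and not the whole rRNA. The mRNAs that this ribosome translates were higher in 13 of 13 cases at an unadjusted p under 0.05, with a median of 1.21, far from the medians of 0.11 and 0.21 of its proteins. The 80 proteins of the cytosolic ribosome had a median of 0.33, with 29 higher and 3 lower at the same unadjusted p (edgeR). Of all genes, 12.3% were higher and 12.4% lower at this p.

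Leaving out each library in turn kept the direction of all 18 higher and 10 lower members in each of the 6 fits. These members were chosen by p on the same 6 libraries. Groups that do not overlap keep their direction whichever library is left out, so the kept direction is no test of it. An unadjusted p under 0.05 was kept in every fit by 13 of the higher members, Mrpl4, Mrpl22, Mrpl23, Mrpl27, Mrpl33, Mrpl51, Mrpl52, Mrpl54, Mrpl57, Mrps15, Mrps21, Mrps28 and Mrps33, and by 6 of the lower ones, Mrpl9, Mrpl12, Mrpl53, Mrps18a, Mrps18b and Mrps23. Each of these fits has 2 libraries in a group. The log2 fold changes of the members with the smallest p stayed between 1.17 and 1.45 (Mrpl54), 0.97 and 1.25 (Mrpl52) and 0.93 and 1.03 (Mrps15). At an adjusted p under 0.1, no member was called without HFD library 2, HFD library 3, HTG library 2 or HTG library 3. Without HTG library 1, members were called even at the stricter adjusted p under 0.05. They were 6 large subunit members, 4 of them higher and 2 lower, and 2 small subunit members, 1 in each direction. Without HFD library 1, 2 higher members and 1 lower member of the large subunit had an adjusted p under 0.1. So did 1 higher member of the small subunit. The shares of all genes called in these fits are not given, so these counts have no background. Per library, 38 of 49 large subunit members were above their own mean in HTG library 1, against 27 in HTG library 2 and 23 in HTG library 3, and between 20 and 24 in the HFD libraries.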

How the data were processed

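Liver RNA of 3 HFD and 3 HTG animals was analysed, grouped by the sample titles. The authors deposited a single table with estimated counts for each gene, held as whole numbers, and the matching FPKM of every library. The submitters' processing notes name HISAT2, StringTie, SAMtools and the rat build mRatBN7.2, although the rows and coordinates are those of mouse genes. Coordinates are printed as the table lists them. Every column of values belonged to 1 of the 6 libraries, with 0 left unmapped.

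Counts were scaled by TMM, filtered with filterByExpr and tested between the groups with edgeR 4.0.16 (glmQLFit and glmQLFTest, two-sided, Benjamini-Hochberg adjustment over all genes tested) in R 4.3.3. Standard errors are the absolute log2 fold change divided by the square root of the quasi-likelihood F. DESeq2 1.42.0 and limma 3.58.1 served as alternatives, beside other filters, scalings, each library left out, the replicate number as a block, counts divided by 4, the length trend taken out (lowess on the length implied by counts and FPKM) and Mrps30 and Mrps18a moved to the large subunit. Leaving out members that overlap another row, or Mrps36, was added after the data were seen, as was the grouping by bacterial counterpart. The fits were tested on simulated counts.

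The members and the lists of genes were chosen with earlier results of these data known. Genes described with their values were the 3 members of each subunit with the highest mean FPKM, the 4 with the smallest p in each direction, members with a known role, and the 2 genes with the smallest p in each other list. Intervals for counting error were not computed, and depth limits no member, the lowest count being 210. No sequence is printed, as sequences of mouse genes were not analysed here. The p-values measure the spread between the animals of these groups.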

Additional observations from a re-analysis of the deposited data

How the results depend on the processing

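The 33 members chosen by the rule for named genes kept their direction and side of an unadjusted p of 0.05 in 488 of 528 alternative values, with 29 weaker and 11 reversed. Reversed were values near 0: Mrps34 with at least 10 counts in every library (0.0052), upper-quartile scaling (0.030) and counts divided by 4 (0.011), and with a library left out Mrps34 (from -0.32 to 0.17), Mrpl11 (from -0.055 to 0.25) and Mrps7 (from -0.033 to 0.19), both lowest without HTG library 1, Mrpl45 (from -0.14 to 0.022, highest without HFD library 2) and Mrps27 (from -0.41 to 0.12, highest without HFD library 3). At an adjusted p under 0.05, where the reported counts were 0, the large subunit had 5 higher and 3 lower members by DESeq2, 4 and 2 by limma on log2(FPKM + 0.1) and also on log2(FPKM + 1), 4 and 1 with at least 10 counts in every library, 5 and 1 with counts divided by 4, and 2 higher with no filter. The small subunit had 3 higher and 2 lower by DESeq2 and by limma with either pseudocount, 3 higher with at least 10 counts in every library and with counts divided by 4, and 1 higher with no filter. The smallest adjusted p of the report, 0.0538, lies close to the threshold. Among the alternatives, shares of all genes called are given for DESeq2 and limma on log2(FPKM + 0.1) only. The counts of the others have no background here. At an adjusted p under 0.1, the large subunit had 5 lower by DESeq2 and by limma with either pseudocount, and 5 higher with no filter and with the size factors of DESeq2 in edgeR. The small subunit had 2 higher with the length trend removed, and 1 lower with Mrps30 and Mrps18a counted in the large subunit. With the length trend removed, the large subunit had 8 higher at an unadjusted p under 0.05, and the medians were 0.0091 (large) and 0.13 (small).

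With the replicate number of the labels as a block, 0 members of either subunit had an adjusted p under 0.1 in either direction. Same-numbered libraries did not deviate together (r = -0.08, -0.07 and 0.10 across genes for numbers 1, 2 and 3), so the numbers were taken as names only. Leaving out each library in turn, which leaves 2 in a group, gave 0 to 4 higher and 0 to 2 lower large subunit members at an adjusted p under 0.05, 0 to 4 and 0 to 6 under 0.1, and 9 to 12 and 3 to 10 at an unadjusted p under 0.05. For the small subunit these counts were 0 to 1 and 0 to 1, 0 to 4 and 0 to 3, and 4 to 6 and 3 to 3. The medians ranged from 0.072 to 0.15 (large) and from 0.083 to 0.23 (small), the lowest of the latter without HTG library 1 and 0.10 without HFD library 3. The cause of these shifts was not tested.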
